A study of Mus musculus with 12 samples.

Results

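Macrophages can join into multinucleated giant cells, and IL-4 is the cytokine best known for starting this in culture. The genes described here are 10 of the 34327 genes in the expression table. They were chosen by symbol, as genes whose products are known from studies of giant cells and osteoclasts to promote, restrain or mark fusion: Cdh1, Dcstamp, Ocstamp, Atp6v0d2, Acp5, Cd9, Cd81, Sirpa, Cd47 and P2rx7. All 10 were found in the table. RNA-seq was done on bone marrow-derived macrophages (BMDMs) of wild-type mice of the strain labelled C57BL/6 (C57BL/6J in the protocol), matured in vitro with medium conditioned by L929 cells. The cells were kept for 24 h on tissue culture (TC) plates, in low-collagen gels (2 mg/ml) or in high-collagen gels (7 mg/ml) of rat tail collagen I, either untreated or with IL-4 at 20 ng/ml. Each of the 6 conditions has 2 libraries, 12 in all. The labels do not say whether the 2 libraries came from separate animals or cultures, so the p-values measure only the spread between these samples, which may be technical. The 2 gels differ in collagen concentration and, per the paper, with it in stiffness and pore size. The plates differ from both gels in geometry and material, so these properties cannot be told apart. No count of fused cells or nuclei was analysed here.

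Fusion of macrophages passes through adhesion of neighbouring cells, recognition between surface proteins and merging of the membranes. E-cadherin, the product of Cdh1, is an adhesion molecule of epithelia that macrophages make when IL-4 acts through STAT6. DC-STAMP and OC-STAMP are proteins with several membrane spans that osteoclast precursors and giant cells need for fusion. Atp6v0d2 encodes the d2 subunit of the vacuolar proton pump (V-ATPase), which has a known role in the fusion of osteoclast precursors, and Acp5 encodes tartrate-resistant acid phosphatase, a classical marker of osteoclasts. The tetraspanins CD9 and CD81 restrain the fusion of mononuclear phagocytes, SIRP-alpha (Sirpa) on macrophages binds CD47 on the neighbouring cell, and P2rx7 encodes an ATP-gated channel that has been linked to giant cell formation.

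Values are TPM (a gene's transcripts as a share of all transcripts in the library), which are corrected for transcript length, so levels of different genes can be set side by side within a library. The members spanned a wide range of levels. Averaged over the 12 libraries, Sirpa had 795 TPM, Cd9 557, Cd81 447, Atp6v0d2 205, Cd47 165, P2rx7 68.2, Acp5 8.76, Cdh1 2.92, Dcstamp 1.00 and Ocstamp 0.633 TPM. The 2 genes for the STAMP proteins were thus near the lower limit of what the table measures, whereas Sirpa ranked 201 among all genes. The ratio of the highest to the lowest condition mean was 70.9 for Atp6v0d2, 10.9 for Acp5 and 3.26 for Cd9, and between 1.34 and 1.45 for Cd81, Sirpa and Cd47. Differences between conditions were tested with limma on log2(TPM + 1) over all genes that averaged at least 1 TPM, with Benjamini-Hochberg adjustment, and a difference was called at an adjusted p under 0.2. All fold changes below that are given as log2 are on this scale, which understates changes of genes near or below 1 TPM.

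**Figure D1:**
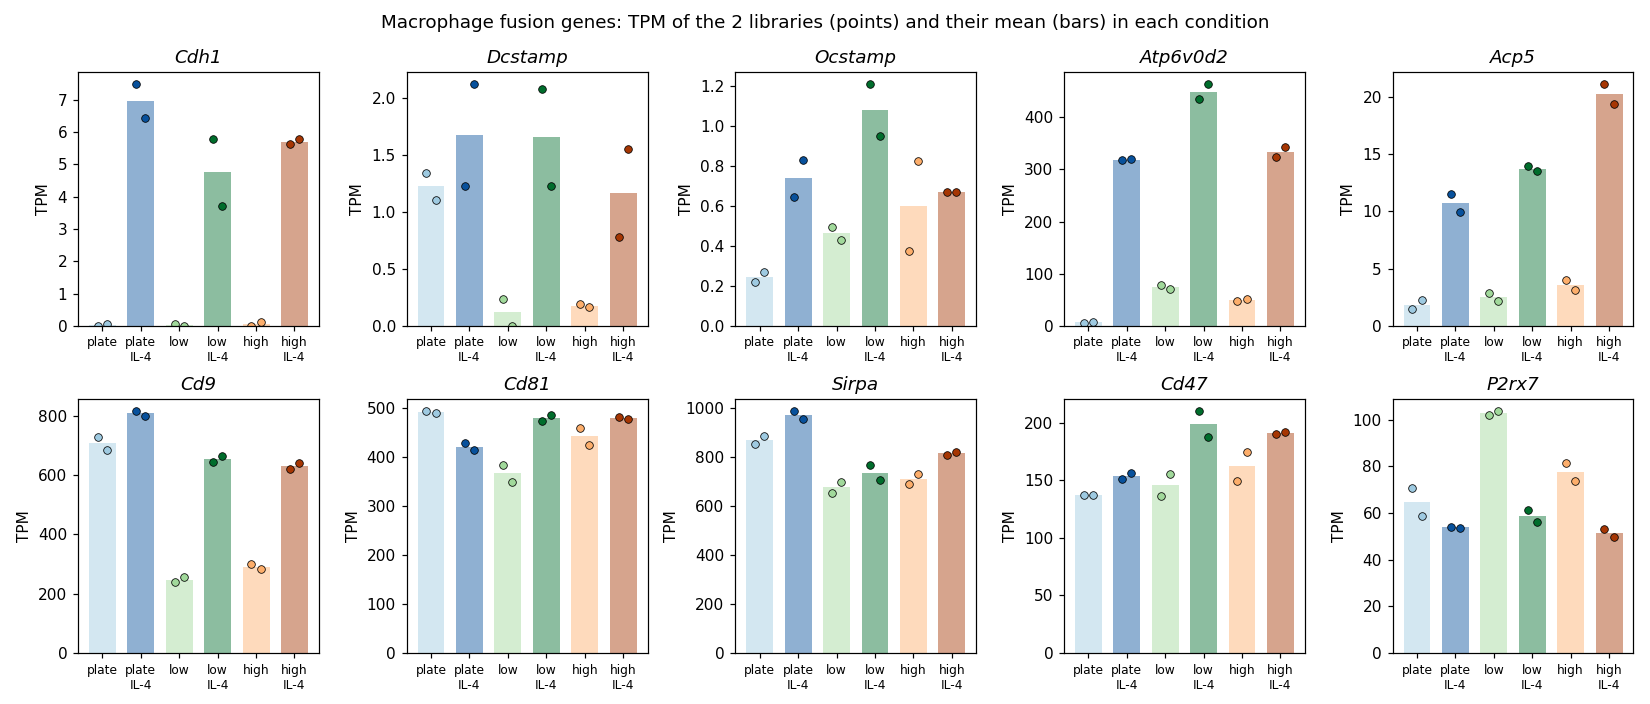
TPM (vertical axis, linear, from 0) of the 10 fusion genes in each condition (horizontal axis: TC plate, low-collagen gel, high-collagen gel, each untreated or with IL-4). Points are the 2 libraries and bars their mean. Cdh1, Atp6v0d2 and Acp5 are higher in every IL-4 library than in every untreated library, Cd9 is lowest in untreated gels (240 to 300 TPM), and P2rx7 is highest in untreated low-collagen gels (102 and 104 TPM).

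With IL-4 most of the tested fusion genes were called higher on each of the 3 substrates, and P2rx7 was called lower on all of them. In low-collagen gels 7 of the 8 members tested were called higher with IL-4, where 13.2% of all 11852 genes tested were, and 1, P2rx7, was called lower, where 40.4% of all genes were. In high-collagen gels 6 of 8 were higher (11.5% of all genes) and 1 was lower (22.8% of all genes). On TC plates 5 of 9 were higher (14.7% of all 11865 genes) and 2, Cd81 and P2rx7, were lower (24.0% of all genes). After rescaling of the libraries to their median ratio Cd47 was higher on plates too (adjusted p = 0.0565) and Cd81 was no longer called there. Leaving out some single libraries removed the calls of Sirpa on all 3 substrates, of Cd47 at high collagen and of P2rx7 on plates. Quantile normalization removed those of Sirpa on all 3 and of Cd9 on plates (0.12, adjusted p = 0.211). The majority on plates, 5 of 9, thus rests on such calls. Ocstamp was below the filter in every comparison and Dcstamp in those within gels, Dcstamp passed the other with a mean of 1.00 TPM, and Cdh1 passed it only through the IL-4 libraries, so these shares do not describe all 10 members. The members were also chosen with earlier results of these data known, so their counts are descriptions and no test of the set. As the libraries are bulk RNA, a smaller number of cells that express a gene and less of its RNA in each cell cannot be told apart.

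**Figure D2:**
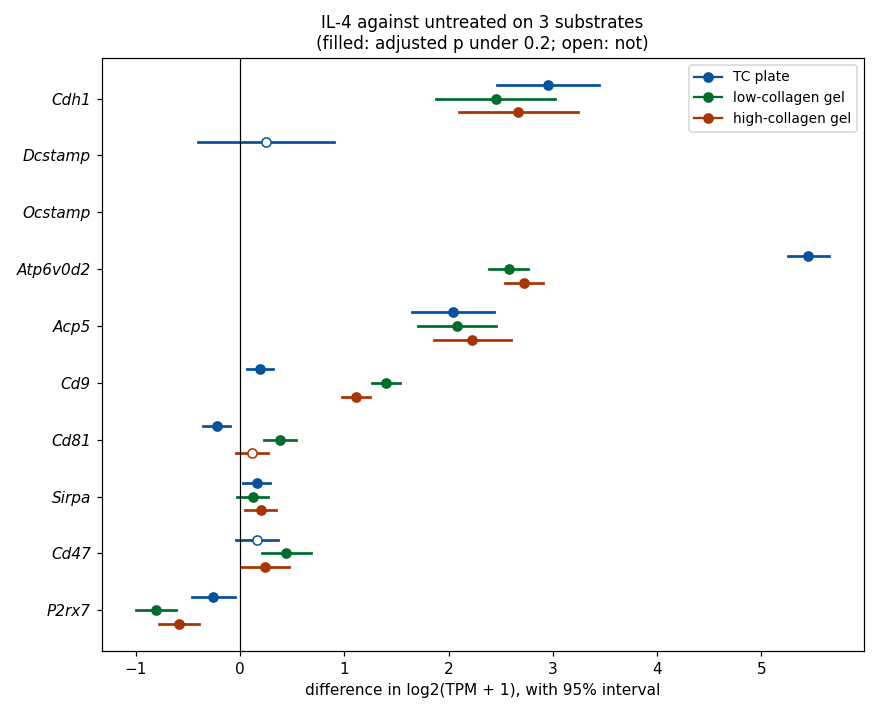
Difference in log2(TPM + 1) between IL-4 and untreated libraries (horizontal axis) for each fusion gene on TC plates and in gels of low and of high collagen; lines are 95% intervals, filled points have an adjusted p under 0.2, and genes below the filter have no point. Atp6v0d2 stands at 5.45 on plates against 2.57 and 2.73 in gels, Cd9 at 0.19 against 1.40 and 1.11, and P2rx7 is below 0 on all 3 substrates.

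Cdh1 (chr8:106603351-106670246, plus strand; all gene positions are on GRCm38) changed from near absence to a low level with IL-4. The untreated libraries had 0 and 0.0516 TPM on plates, 0.0684 and 0 TPM in low-collagen gels, and 0 and 0.111 TPM in high-collagen gels. The IL-4 libraries had 7.49 and 6.43 TPM on plates, 5.80 and 3.71 TPM in low-collagen gels, and 5.62 and 5.79 TPM in high-collagen gels. No untreated library reached any IL-4 library on any substrate. The log2 difference was 2.95 ± 0.22 (SE; limma adjusted p = 9.01e-06) on plates, 2.45 ± 0.25 (adjusted p = 0.000309) in low-collagen gels and 2.67 ± 0.25 (adjusted p = 0.0003) in high-collagen gels. These differences depend on the constant added before the logarithm, and with 0.1 in place of 1 they were 5.84, 5.19 and 5.32. Because 1 of the 2 untreated libraries was listed at 0 on each substrate, no fold of TPM is given. The 9 epithelial markers Epcam, Krt8, Krt18, Krt19, Cldn3, Cldn4, Cldn7, Esrp1 and Grhl2 were each below 1 TPM in every library, and Cldn3, Cldn4 and Esrp1 were at 0 in all 12. Their summed level was 0.329 to 0.571 TPM in the IL-4 libraries on plates, 0.202 to 0.457 TPM in those of low-collagen gels and 0 to 0.0720 TPM in those of high-collagen gels, so none of these sums reached the Cdh1 level of the same condition.

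With IL-4, Cdh1 was called lower in gels than on plates, by a log2 difference of −0.37 (adjusted p = 0.114), but the call was lost without the first IL-4 library on plates (−0.27, adjusted p = 0.393) or without the second IL-4 library of low-collagen gels (−0.24, adjusted p = 0.296), and after rescaling of the libraries to their median ratio (−0.14, adjusted p = 0.524). The 2 collagen concentrations did not separate Cdh1 with IL-4, where the 95% interval of the log2 difference of high from low ran from −0.33 to 0.81. Of 9 further genes for cadherins, catenins and their linkers, 6 were tested. IL-4 raised 1 and lowered 3 in low-collagen gels (median log2 difference −0.12, all genes −0.19). It raised 1 and lowered 2 in high-collagen gels (median −0.02, all genes −0.10), and raised 1 and lowered 2 on plates (median −0.29, all genes −0.06). Over all genes the shares called higher and lower were 13.2% and 40.4%, 11.5% and 22.8%, and 14.7% and 24.0%, in that order. The riser of this list was Ctnnb1, the beta-catenin that binds the tail of E-cadherin, in each case (log2 0.47, 0.55 and 0.52, in that order), and the largest fall was Vcl, vinculin (−0.67, −0.53 and −0.90).

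Atp6v0d2 (chr4:19876841-19922605, minus strand) rose with IL-4 on every substrate, by the largest ratio on plates. It had 5.77 and 6.92 TPM in untreated libraries on plates, 78.4 and 71.0 TPM in untreated low-collagen gels, and 47.2 and 51.7 TPM in untreated high-collagen gels. Under IL-4 it had 317 and 321 TPM on plates, 435 and 464 TPM in low-collagen gels, and 323 and 342 TPM in high-collagen gels. The 6 conditions thus formed an order without overlap: low collagen with IL-4, high collagen with IL-4, plates with IL-4, then untreated low collagen, untreated high collagen and untreated plates. The ratio of the IL-4 to the untreated mean was 50.3 on plates (log2 5.45 ± 0.09, adjusted p = 1.01e-09), 6.02 in low-collagen gels (2.57 ± 0.08, adjusted p = 9.92e-07) and 6.72 in high-collagen gels (2.73 ± 0.08, adjusted p = 1.04e-06). The IL-4 response in gels was smaller than that on plates by 2.80 ± 0.11 on the log2 scale (adjusted p of the difference 2.24e-06).

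The smaller response in gels went with a higher level before IL-4. Untreated gels exceeded untreated plates by a log2 difference of 3.08 ± 0.08 (adjusted p = 3.9998e-09), and the mean was 11.8 times that of plates in low-collagen gels and 7.80 times in high-collagen gels. The same contrast with IL-4 was 0.28 ± 0.08 (adjusted p = 0.00911). Between gels, Atp6v0d2 was lower at high collagen, by −0.58 ± 0.08 without IL-4 (adjusted p = 0.0400) and −0.43 ± 0.08 with IL-4 (adjusted p = 0.0295), which are 1.51 and 1.35 times more transcript at low collagen. Both calls held without any one library, as did the IL-4 calls.

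The d subunit of the pump comes in 2 forms, and the other gene, Atp6v0d1, is the one most tissues use. Atp6v0d1 stayed between 169 and 293 TPM over the 12 libraries. The share of Atp6v0d2 in the TPM of both genes was 2.30% and 2.66% in the untreated plate libraries, 26.5% to 27.7% in untreated low-collagen gels and 21.8% to 22.3% in untreated high-collagen gels. Under IL-4 it was 51.9% to 52.6% on plates, 65.5% to 66.7% in low-collagen gels and 61.7% to 63.5% in high-collagen gels. Atp6v0d2 was therefore the larger of the 2 in every IL-4 library and in no untreated one.

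**Figure D3:**
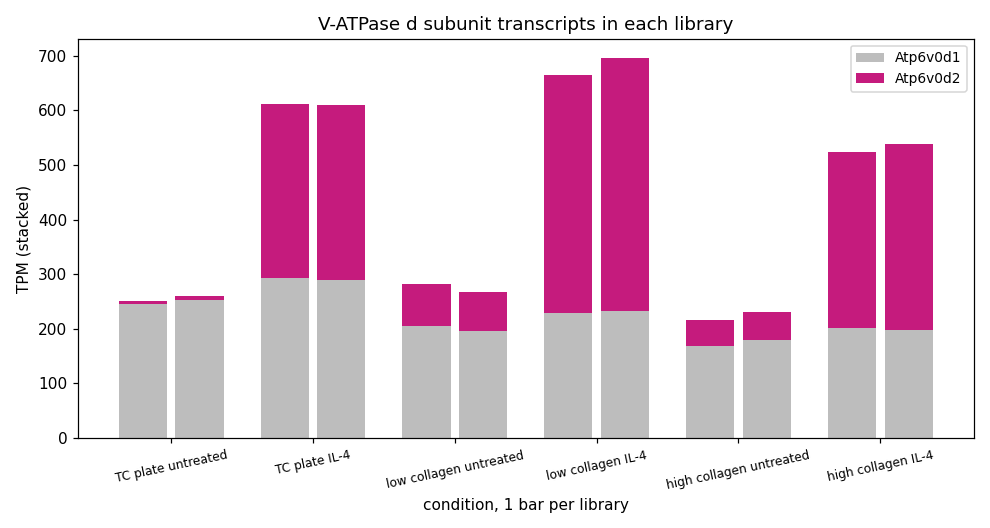
TPM of Atp6v0d1 (grey) and Atp6v0d2 (magenta), stacked, in each of the 12 libraries (1 bar per library, grouped by condition). The grey part lies between 169 and 293 TPM, while the magenta part goes from 5.77 to 464 TPM and exceeds the grey one in the IL-4 libraries.

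Other V-ATPase genes were read beside Atp6v0d2. All 17 listed genes of other subunits and accessory proteins passed the filter. IL-4 raised 11 and lowered 3 of them in low-collagen gels, with a median log2 difference of 0.18 against −0.19 over all genes. In high-collagen gels it raised 11 and lowered 1 (median 0.19, all genes −0.10), and on plates it raised 9 and lowered 3 (median 0.22, all genes −0.06). Of all genes, 13.2%, 11.5% and 14.7% were called higher in that order, and 40.4%, 22.8% and 24.0% lower. The largest rise was that of Atp6v1b2, a subunit of the part that splits ATP, in both gels (1.08 at low and 0.90 at high collagen) and of Atp6v0a1, a subunit of the membrane part, on plates (1.56). Of the 17, 13 were lower in untreated gels than on plates and none was higher (46.7% and 29.7% of all genes, median −0.41, all genes −0.15). With IL-4 14 were lower and none higher (51.8% and 25.7% of all genes, median −0.44, all genes −0.24), so Atp6v0d2 was higher in gels where none of these 17 was. Between gels they went the same way as Atp6v0d2 where called, with 1 exception. At high collagen with IL-4, 4 were lower (6.99% of all genes) and 1, Atp6v1c1, was higher (14.1% of all genes). Without IL-4, 3 were lower (4.79% of all genes) and none higher (3.23% of all genes). The largest fall there was that of Atp6v0a1 with IL-4 (−0.45).

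Acp5 (chr9:22126727-22135711, minus strand) rose with IL-4 by a similar factor on all 3 substrates. On plates it went from 1.49 and 2.22 TPM to 11.5 and 9.90 TPM. In low-collagen gels it went from 2.85 and 2.14 TPM to 13.9 and 13.5 TPM, and in high-collagen gels from 3.996 and 3.11 TPM to 21.1 and 19.4 TPM. Every IL-4 library was above every untreated one. The ratio of means was 5.76 on plates (log2 2.04 ± 0.17, adjusted p = 2.35e-05), 5.49 in low-collagen gels (2.08 ± 0.16, adjusted p = 7.72e-05) and 5.70 in high-collagen gels (2.23 ± 0.16, adjusted p = 8.11e-05). The difference between the responses in gels and on plates was 0.11, with a 95% interval from −0.37 to 0.59.

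Acp5 was also higher in gels than on plates, by log2 0.49 ± 0.15 untreated (adjusted p = 0.0168) and 0.60 ± 0.15 with IL-4 (adjusted p = 0.00562). With IL-4 it was higher at high than at low collagen by 0.53 ± 0.16 (adjusted p = 0.107), the opposite direction to Atp6v0d2. This call was lost when any one of the 4 IL-4 gel libraries was left out (0.47 to 0.59, adjusted p = 0.243 to 0.332). Of the annotated transcripts' words of 31 bases, 5.58% also occur in 6530413G14Rik, so part of the reads could be assigned to either gene.

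Atp6v0d2 and Acp5 are also used by osteoclasts, so other genes of that cell type were read beside them. Calcr, the calcitonin receptor of mature osteoclasts, was listed at 0 in all 12 libraries and Oscar was below 1 TPM in all. The summed TPM of 6 mature osteoclast markers was 112 to 116 with IL-4 against 38.9 to 41.8 untreated on plates, and 66.8 to 69.2 against 31.5 to 31.7 in low-collagen gels. In high-collagen gels it was 67.3 to 67.6 against 34.5 to 36.0. The 6 were Ctsk, Calcr, Oscar, Itgb3, Mmp9 and Nfatc1, and most of the rise was in Itgb3. It had mean levels of 9.42 TPM untreated and 84.6 TPM with IL-4 on plates. Ctsk, at lower levels, rose on each substrate. It went from 1.71 and 2.30 TPM to 4.62 and 5.73 TPM on plates. In low-collagen gels it went from 2.14 and 2.18 TPM to 8.22 and 9.37 TPM, and in high-collagen gels from 4.55 and 4.35 TPM to 9.58 and 8.67 TPM. On plates Nfatc1 had 28.5 and 26.7 TPM untreated and 25.3 and 22.8 TPM with IL-4. Mmp9 had 2.05 and 0.486 TPM untreated and 0.161 and 0.0590 TPM with IL-4 there. Of a list of 16 osteoclast genes other than the members, IL-4 raised 2 and lowered 4 of 11 tested in low-collagen gels (median −0.11, all genes −0.19). It raised 3 and lowered 2 of 11 in high-collagen gels (median 0.04, all genes −0.10), and raised 3 and lowered 5 of 12 on plates (median −0.15, all genes −0.06). Over all genes the shares called higher and lower were 13.2% and 40.4%, 11.5% and 22.8%, and 14.7% and 24.0%, in that order. Itgb3, the beta-3 integrin chain of osteoclasts and platelets, had the largest rise each time (3.11, 2.90 and 3.04, in that order). The largest fall was Tnfrsf11a, the receptor RANK, in gels (−0.61 at low and −0.51 at high collagen) and Spp1, osteopontin, on plates (−0.96). The part of any osteoclast-like cells in these values was not tested.

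Dcstamp (chr15:39745930-39760938, plus strand) was low throughout but followed a pattern of its own. It had 1.34 and 1.11 TPM on untreated plates, and 1.23 and 2.12 TPM on plates with IL-4. In untreated low-collagen gels it had 0.237 and 0 TPM, and in untreated high-collagen gels 0.192 and 0.161 TPM. The IL-4 gel libraries had 2.08 and 1.23 TPM at low collagen and 0.779 and 1.55 TPM at high collagen. Untreated gels were thus apart from all other libraries, which overlapped with each other.

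Untreated gels were lower in Dcstamp than untreated plates by a log2 difference of −0.96 ± 0.25 (adjusted p = 0.00746). On plates the IL-4 difference of 0.25 ± 0.29 was not called (95% interval −0.41 to 0.90). Within gels Dcstamp was below the filter, and without a filter, where 18273 genes were tested, IL-4 raised it by 1.24 ± 0.24 in low-collagen gels (adjusted p = 0.0177) and by 0.86 ± 0.24 in high-collagen gels (adjusted p = 0.0850). In the unfiltered test 9.50% of genes were called higher at low and 7.79% at high collagen. The difference between the IL-4 responses in gels and on plates was 0.80 ± 0.36 (adjusted p = 0.192). That call was lost without the second untreated library of low-collagen gels (0.72, adjusted p = 0.276) and without the first or the second untreated library of high-collagen gels (0.81, adjusted p = 0.243, and 0.79, adjusted p = 0.241).

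Ocstamp (chr2:165393760-165400405, minus strand) stayed near or below 1 TPM. The untreated libraries had 0.220 and 0.270 TPM on plates, 0.496 and 0.430 TPM in low-collagen gels, and 0.376 and 0.827 TPM in high-collagen gels. The IL-4 libraries had 0.646 and 0.831 TPM on plates, 1.21 and 0.952 TPM in low-collagen gels, and 0.669 and 0.671 TPM in high-collagen gels. They were above the untreated ones on plates and at low collagen, and overlapped with them at high collagen. Without a filter the log2 difference was 0.48 ± 0.14 on plates (adjusted p = 0.0675), 0.51 ± 0.16 at low collagen (adjusted p = 0.0841) and 0.07 ± 0.16 at high collagen (adjusted p = 0.848). The gap between the 2 gels in this response was not called (−0.43 ± 0.23, adjusted p = 0.658). Of its words of 31 bases, 5.65% occur in other genes as well.

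The tetraspanin Cd9 (chr6:125460266-125494791, minus strand) was lower in untreated gels than on untreated plates, and IL-4 raised it more in gels. On plates it had 730 and 685 TPM untreated and 816 and 800 TPM with IL-4. In low-collagen gels it had 240 and 256 TPM untreated and 646 and 665 TPM with IL-4, and in high-collagen gels 300 and 284 TPM untreated and 619 and 642 TPM with IL-4. No library of one condition overlapped with those of another.

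Untreated gels were lower in Cd9 than untreated plates by a log2 difference of −1.39 ± 0.05 (adjusted p = 1.35e-08), which is 2.85 times less at low and 2.43 times less at high collagen. IL-4 raised Cd9 by 1.40 ± 0.06 at low collagen (adjusted p = 3.51e-06) and 1.11 ± 0.06 at high collagen (adjusted p = 1.75e-05), but by only 0.19 ± 0.05 on plates (adjusted p = 0.0295). The response in gels exceeded that on plates by 1.06 ± 0.07 (adjusted p of the difference 2.41e-05). With IL-4 the gels were still lower, by −0.33 ± 0.05 (adjusted p = 0.000152), but after rescaling of the libraries to their median ratio that difference was −0.06 (adjusted p = 0.368). Of the words of 31 bases in Cd9 transcripts, 20.1% also occur in other genes, more than in any other member, and its pseudogene Cd9-ps shares 3.73% and was listed at no more than 0.309 TPM.

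Cd81 (chr7:143052739-143067934, plus strand), a close relative of Cd9, moved by far less, and was called in opposite directions on plates and at low collagen. On plates it had 494 and 490 TPM untreated and 428 and 414 TPM with IL-4. In low-collagen gels it had 385 and 350 TPM untreated and 475 and 485 TPM with IL-4, and in high-collagen gels 460 and 426 TPM untreated and 483 and 478 TPM with IL-4. IL-4 lowered it on plates (−0.22 ± 0.06, adjusted p = 0.0194), raised it at low collagen (0.39 ± 0.07, adjusted p = 0.00409) and gave no call at high collagen (0.12 ± 0.07, adjusted p = 0.272). After rescaling to the median ratio the fall on plates was −0.16 with an adjusted p = 0.2003, just past the threshold, and the rise at high collagen was 0.23 with an adjusted p = 0.170. The responses in gels and on plates differed by 0.48 ± 0.07 (adjusted p = 0.00252).

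Of 16 further tetraspanins and partners of CD9 and CD81, all were tested in gels and 15 in comparisons with plates. IL-4 raised 3 and lowered 7 in low-collagen gels (median −0.20, all genes −0.19), raised 3 and lowered 5 in high-collagen gels (median −0.09, all genes −0.10), and raised 4 and lowered 4 on plates (median 0.05, all genes −0.06). Of all genes, 13.2%, 11.5% and 14.7% were called higher in that order, and 40.4%, 22.8% and 24.0% lower. Tspan5 rose most in gels (1.00 at low and 0.58 at high collagen) and Tspan13 fell most (−1.74 and −1.06). On plates the largest rise was Ptgfrn, a partner that binds CD9 and CD81 (0.95), and the largest fall was Cd82 (−0.92). Untreated gels had 8 higher and 4 lower than plates (29.7% and 46.7% of all genes, median 0.19, all genes −0.15). With IL-4 gels had 5 higher and 7 lower (25.7% and 51.8% of all genes, median −0.06, all genes −0.24).

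The genes of SIRP-alpha and its ligand showed small differences. Sirpa (chr2:129592835-129632228, plus strand) had 853 and 883 TPM on untreated plates and 986 and 953 TPM with IL-4. It had 653 and 699 TPM in untreated low-collagen gels, 765 and 704 TPM there with IL-4, 688 and 731 TPM in untreated high-collagen gels, and 806 and 822 TPM there with IL-4. Every gel library was below the lowest untreated plate library. The gels were lower by log2 −0.33 ± 0.05 both untreated (adjusted p = 0.000259) and with IL-4 (adjusted p = 0.000255), and after rescaling to the median ratio by −0.16 (adjusted p = 0.0120) and −0.06 (adjusted p = 0.308).

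IL-4 raised Sirpa by 0.16 ± 0.06 on plates (adjusted p = 0.0776), 0.12 ± 0.06 at low collagen (adjusted p = 0.192) and 0.20 ± 0.06 at high collagen (adjusted p = 0.0780). Each of the 3 calls was lost when some single libraries were left out. The call on plates was lost without the first untreated (0.13, adjusted p = 0.293) or first IL-4 library there (0.13, adjusted p = 0.276). At high collagen it was lost without the first untreated library or either IL-4 library of these gels (0.16 to 0.21, adjusted p = 0.211 to 0.309). At low collagen it was lost without the first untreated or first IL-4 library of these gels, or without any one of the 4 high-collagen libraries (0.06 to 0.12, adjusted p = 0.209 to 0.591), and quantile normalization turned its sign (−0.04).

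Cd47 (chr16:49800533-49915010, plus strand), which all nucleated cells carry, had 137 and 137 TPM on untreated plates and 151 and 157 TPM there with IL-4. In low-collagen gels it had 136 and 156 TPM untreated and 210 and 187 TPM with IL-4, and in high-collagen gels 150 and 175 TPM untreated and 190 and 192 TPM with IL-4. IL-4 libraries were above untreated ones on each substrate. The log2 difference was 0.44 ± 0.10 at low collagen (adjusted p = 0.0136) and 0.24 ± 0.10 at high collagen (adjusted p = 0.153). On plates it was 0.16 ± 0.09 (adjusted p = 0.237), and it passed the threshold there when any one of the 4 untreated gel libraries was left out (adjusted p = 0.183 to 0.195). The call at high collagen was lost without the first untreated library or either IL-4 library of these gels (0.13 to 0.25, adjusted p = 0.327 to 0.532).

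With IL-4, gels were higher in Cd47 than plates by 0.34 ± 0.08 (adjusted p = 0.00320). Untreated they were higher by 0.16 ± 0.08 (adjusted p = 0.0950), a call lost without either untreated plate library, the second untreated low-collagen library or the second untreated high-collagen library (0.11 to 0.16, adjusted p = 0.223 to 0.239). A further list held 8 genes, partners of this pair and the Sirpa relatives Sirpb1a, Sirpb1b and Sirpb1c, and all were tested. IL-4 lowered 7 and raised none at low collagen (median −1.32, all genes −0.19), at high collagen (median −1.07, all genes −0.10) and on plates (median −0.70, all genes −0.06). Of all genes, 40.4%, 22.8% and 24.0% were called lower in that order, and 13.2%, 11.5% and 14.7% higher. Thbs1, thrombospondin 1, a secreted ligand of CD47, fell most each time (−3.01, −1.85 and −2.05, in that order). Thbs1 was also the largest rise of the list in gels against plates, by 3.85 untreated and 3.47 with IL-4. In both of these contrasts 5 of the 8 genes were higher and 3 lower. Of all genes, 29.7% were higher and 46.7% lower untreated, and 25.7% and 51.8% with IL-4.

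P2rx7 (chr5:122643911-122691432, plus strand) was the member that IL-4 lowered on every substrate. It had 70.6 and 59.0 TPM on untreated plates and 54.1 and 53.6 TPM there with IL-4. In low-collagen gels it had 102 and 104 TPM untreated and 61.3 and 56.0 TPM with IL-4, and in high-collagen gels 81.3 and 73.8 TPM untreated and 53.3 and 49.6 TPM with IL-4. The untreated conditions were ordered low collagen, high collagen, plates without overlap, while with IL-4 all 6 libraries lay between 49.6 and 61.3 TPM. The log2 difference with IL-4 was −0.80 ± 0.08 at low collagen (adjusted p = 0.000356), −0.58 ± 0.08 at high collagen (adjusted p = 0.00271) and −0.26 ± 0.09 on plates (adjusted p = 0.0776). The call on plates was lost without the first untreated (−0.13, adjusted p = 0.437) or the second IL-4 library there (−0.25, adjusted p = 0.213).

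The P2rx7 response in gels exceeded that on plates in size by a log2 difference of −0.44 ± 0.11 (adjusted p = 0.0379). Untreated gels were higher than untreated plates by 0.46 ± 0.08 (adjusted p = 0.000606). With IL-4 the difference was 0.03 (95% interval −0.15 to 0.21), but 0.29 after rescaling to the median ratio (adjusted p = 0.0101). Of 12 other purinergic receptors and partners, 10 were tested. IL-4 raised 3 and lowered 5 at low collagen (median −0.27, all genes −0.19). It raised 2 and lowered 5 at high collagen (median −0.21, all genes −0.10), and raised 3 and lowered 5 on plates (median −0.16, all genes −0.06). Over all genes the shares called higher and lower were 13.2% and 40.4%, 11.5% and 22.8%, and 14.7% and 24.0%, in that order. P2ry1, an ADP receptor, rose most in each (3.51, 2.58 and 2.27, in that order), and P2ry13, another ADP receptor, fell most in gels (−1.96 and −1.66), while Nt5e, the ectoenzyme that turns AMP into adenosine, fell most on plates (−1.75).

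Gels were compared with plates as the mean of both gels. Untreated, 4 of 9 members were higher in gels (29.7% of all genes) and 4 were lower (46.7% of all genes). With IL-4, 4 of 9 were higher (25.7% of all genes) and 3 were lower (51.8% of all genes). Most of the 11865 genes tested were called in these 2 contrasts, so the counts are no result about the members. The IL-4 response differed between gels and plates for 5 of 9 members: it was higher in gels for Cd9, Dcstamp and Cd81 (10.8% of all genes) and lower for Atp6v0d2 and P2rx7 (16.4% of all genes). After rescaling to the median ratio the Cd47 response was called higher in gels as well (0.28, adjusted p = 0.0838). These contrasts share libraries with the IL-4 comparisons and with each other. The median difference of all genes was −0.15 between untreated gels and plates, −0.24 with IL-4, −0.19 for IL-4 at low collagen and −0.10 at high collagen, and rescaling to the median ratio brought it to no more than 0.00294 in size in each. Rescaling also changed the split of calls over all genes, from 13.2% higher and 40.4% lower to 24.03% and 20.37% for IL-4 at low collagen, from 11.5% and 22.8% to 16.99% and 14.59% at high collagen, from 14.7% and 24.0% to 19.36% and 19.88% on plates, from 29.7% and 46.7% to 37.83% and 38.11% for untreated gels against plates, and from 25.7% and 51.8% to 37.98% and 38.08% with IL-4. For the difference between the responses in gels and on plates the split went from 10.8% and 16.4% to 15.35% and 9.986%.

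**Figure D4:**
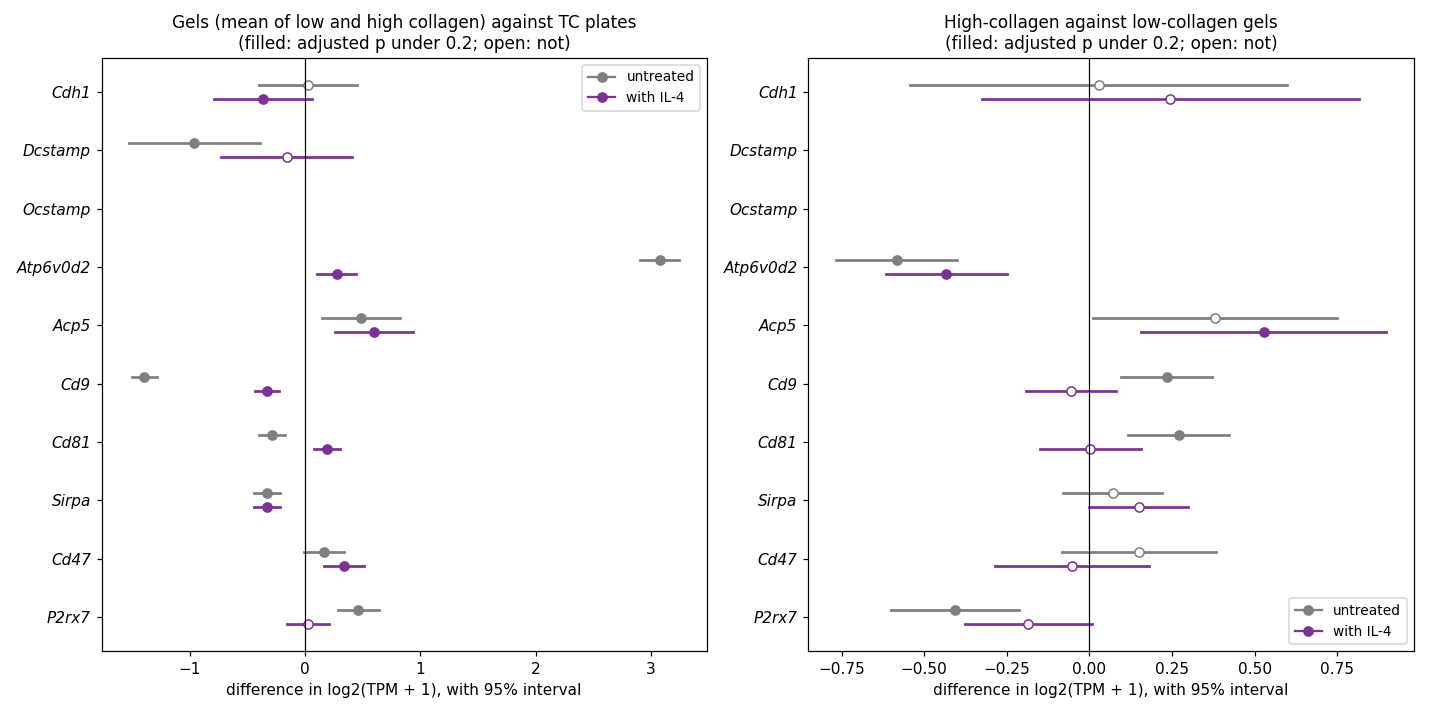
Differences in log2(TPM + 1) (horizontal axes) of the fusion genes between gels and TC plates (left) and between high- and low-collagen gels (right), untreated (grey) and with IL-4 (purple); lines are 95% intervals, filled points have an adjusted p under 0.2, and genes below the filter have no point. On the left Atp6v0d2 stands at 3.08 and Cd9 at −1.39 without IL-4, and the right axis is narrower, with all values between −0.58 and 0.53.

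Between the collagen concentrations 2 of 8 members were called with IL-4 and 4 of 8 without. With IL-4, 1 of 8 was higher at high collagen, Acp5 (14.1% of all genes), and 1 was lower, Atp6v0d2 (6.99% of all genes). After rescaling to the median ratio the split over all genes was 9.825% and 11.71%, and P2rx7 with IL-4 was called lower as well (−0.27, adjusted p = 0.115). Without IL-4, Cd9 and Cd81 were higher (2 of 8; 3.23% of all genes) and Atp6v0d2 and P2rx7 were lower (2 of 8; 4.79% of all genes), and rescaling gave a split of 3.731% and 3.613%. For Cd9 the log2 difference was 0.23 ± 0.06 (adjusted p = 0.126), for Cd81 0.27 ± 0.07 (adjusted p = 0.116) and for P2rx7 −0.41 ± 0.08 (adjusted p = 0.0782). The call of Cd9 was lost without any one of the 4 untreated gel libraries (0.19 to 0.28, adjusted p = 0.203 to 0.362). That of Cd81 was lost without the second untreated low-collagen library or either untreated high-collagen library (0.20 to 0.33, adjusted p = 0.225 to 0.354) and after rescaling (0.30, adjusted p = 0.214), and that of P2rx7 without the second untreated library of either gel (−0.40 and −0.34, adjusted p = 0.229 and 0.272). Sirpa with IL-4 was not called (0.15 ± 0.06, adjusted p = 0.224) and passed the threshold without the first or second untreated low-collagen library (adjusted p = 0.1997 and 0.1965).

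No member had an IL-4 response that differed between the 2 gels at the threshold, but few genes of the whole table did, so this is no result about the members. By limma 0 of 8 were called higher (0.194% of all genes) and 0 lower (0.169% of all genes; 0.1182% and 0.2026% after rescaling), and 2, Cd9 (−0.29 ± 0.08, unadjusted p = 0.00891) and Cd81 (−0.27 ± 0.09, unadjusted p = 0.0214), had an unadjusted p under 0.05. The 95% interval of this difference was −0.11 to 0.41 for Atp6v0d2, −0.38 to 0.67 for Acp5 and −0.59 to 1.02 for Cdh1. For reference, Retnla, a target of IL-4, differed by −2.72 ± 0.28 in the same test (adjusted p = 0.0319). The paper had already named Retnla as suppressed at high collagen. Of the 4 reference genes, 2 were called lower in this test and 2 were not called. Retnla, Arg1, Chil3 and Mrc1, genes used as readouts of IL-4, were all raised by it on each substrate.

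Of 29 other genes linked to macrophage fusion, 24 were tested. IL-4 raised 12 and lowered 9 at low collagen (median 0.13, all genes −0.19), raised 11 and lowered 8 at high collagen (median 0.08, all genes −0.10), and raised 11 and lowered 9 on plates (median 0.06, all genes −0.06). Of all genes, 13.2%, 11.5% and 14.7% were called higher in that order, and 40.4%, 22.8% and 24.0% lower. Clec10a, a galactose-binding lectin, rose most in each (2.67, 2.30 and 4.24, in that order). The largest fall was Ccr2, the receptor for CCL2, in gels (−1.54 and −1.58) and Itgam, an integrin chain, on plates (−0.68). In untreated gels 5 were higher and 16 lower than on plates (29.7% and 46.7% of all genes, median −0.38, all genes −0.15), with Clec10a at 3.63 and Ccl2, a chemokine that draws monocytes, at −3.72. With IL-4 8 were higher and 16 lower (25.7% and 51.8% of all genes, median −0.70, all genes −0.24).

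The genes whose levels followed those of a member most closely were sought among genes with a mean of at least 5 TPM, by Pearson's r of log2(TPM + 1) over the 12 libraries. The 12 points are 6 pairs of libraries of the same condition, and the values are descriptions. Cdh1 was nearest to Gm5345 (r = 0.991), Sestd1 and Ado, and Atp6v0d2 to Clec7a, the receptor dectin-1 (r = 0.992), Il6st and Dhrs3. Clec7a had 21.1 TPM on untreated plates, 139 and 135 TPM in untreated low- and high-collagen gels, and 444, 492 and 371 TPM with IL-4 on plates and in low- and high-collagen gels. Acp5 was nearest to Rnf19b (r = 0.984), Wdr91 and Mfsd12, Cd9 to S100a6 (r = 0.984), Glrx and Cox5a, P2rx7 to Lrrc8a (r = 0.974), Nr4a1 and Mgea5, and Dcstamp to St7 (r = 0.958), Gpr183 and Irs2.

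Promoters of 5 of the 10 members were in the RefSeq table used here, on GRCm38.p6. Those of Acp5, Cd9 and P2rx7 are shown because these genes cover a rise with IL-4 on every substrate, a rise mainly in gels and a fall. Each line gives the 250 bases before a start site, 5′ to 3′ on the gene's strand, with matches to the searched motifs in capitals.
Acp5, chr9:22130599-22130848, minus strand: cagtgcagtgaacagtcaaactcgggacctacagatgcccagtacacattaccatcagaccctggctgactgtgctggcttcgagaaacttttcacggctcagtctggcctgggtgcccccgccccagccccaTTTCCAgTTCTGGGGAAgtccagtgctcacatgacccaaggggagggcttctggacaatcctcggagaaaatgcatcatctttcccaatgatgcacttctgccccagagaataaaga
Cd9, chr6:125494761-125495010, minus strand: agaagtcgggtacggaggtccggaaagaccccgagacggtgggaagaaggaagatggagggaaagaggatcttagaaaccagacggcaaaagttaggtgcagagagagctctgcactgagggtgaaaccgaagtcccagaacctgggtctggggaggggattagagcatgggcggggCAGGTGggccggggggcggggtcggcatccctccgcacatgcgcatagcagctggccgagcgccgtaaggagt
P2rx7, chr5:122643677-122643926, plus strand: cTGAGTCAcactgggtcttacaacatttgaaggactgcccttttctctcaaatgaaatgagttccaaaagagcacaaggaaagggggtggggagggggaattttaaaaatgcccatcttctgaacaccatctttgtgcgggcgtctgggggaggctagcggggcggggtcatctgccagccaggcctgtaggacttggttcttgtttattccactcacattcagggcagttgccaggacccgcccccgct

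The motifs searched on both strands were TTCNNNNGAA (the form that STAT6 prefers, where N is any base), TTCNNNGAA (other STATs), TGANTCA (AP-1), CACGTG and CACCTG (E-boxes), TGGAAA (an NFAT core) and GAGGAA (a PU.1 core). The Acp5 start shown holds a STAT6 form, TTCTGGGGAA, beginning 110 bases before the start site, and an NFAT core, TTTCCA on the strand shown, beginning 117 bases before it, and the 2 do not overlap. The other 2 Acp5 starts in the table, which are not shown, hold CAGGTG, the reverse complement of an E-box, but no STAT6 form or NFAT core. Whether STAT6 binds at the start shown was not tested. Cd9 holds the same E-box 73 bases and P2rx7 an AP-1 match, TGAGTCA, 249 bases before the start. No match was found in the window of Cd81, in those of the 2 starts of Cd47, or in that of the second start of P2rx7. Of 32851 promoters of this length, 5.85% hold the STAT6 form, 7.02% the other STAT form, 6.75% AP-1, 6.02% CACGTG, 17.2% CACCTG, 18.6% the NFAT core and 23.3% the PU.1 core. The TPM are per gene, so which start was used was not measured.

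Markers of macrophages and of other cell types were read as a check of the labels. None of the 8 macrophage markers was below 1 TPM throughout, while 6 of 6 dendritic cell and 6 of 6 fibroblast markers were below 1 TPM in every library. The sum of the macrophage markers was lower with IL-4 on each substrate, and higher in gels than on plates at the same treatment. On plates it was 27984 to 28590 TPM untreated and 17541 TPM with IL-4. At low collagen it was 43329 to 46130 and 30713 to 31914 TPM, and at high collagen 53817 to 53953 and 35730.5 to 37695 TPM, in that order. Markers of other blood cells were low but not all absent, and their sums differed between substrates. Of 6 neutrophil markers 4, Ly6g, Mpo, Elane and Camp, were below 1 TPM in every library, and the sum of the 6 was 4.50 to 9.16 TPM on untreated plates, 22.7 to 30.4 TPM in untreated low-collagen gels and 13.9 to 18.2 TPM in untreated high-collagen gels. With IL-4 it was 4.08 to 8.37, 14.5 to 20.3 and 12.8 to 13.9 TPM, in that order. Of 6 lymphocyte markers all but Cd79b were below 1 TPM in every library, and their sum was 0.888 to 1.72 TPM on plates and 4.33 to 6.58 TPM in gels. The sum of 6 megakaryocyte and platelet markers was 1.15 to 1.77 TPM on plates and 0.703 to 5.89 TPM in gels. The part of such cells in the differences between gels and plates was not tested. Libraries of the same condition correlated with r from 0.980 to 0.985 on log2(TPM + 1) over the genes, which are not independent replicates. The depth of the libraries is unknown, because TPM carry no read counts.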

How the data were processed

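Macrophage RNA of 12 libraries was sequenced, and the authors deposited 1 table of TPM per gene and library. Per the labels and the methods, stranded mRNA libraries were read as paired ends, abundances were estimated with kallisto 0.46.1 on the Ensembl GRCm38 transcriptome, and their tests used Sleuth. TPM are corrected for length and scaled to 1 total per library, so they hold no depth, and no interval of counting error can be given. kallisto divides reads between genes of similar sequence, and a value listed at 0 can be a failed estimate.

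Repeated lines (129 of 34456) were collapsed, leaving 34327 genes. Genes were tested with limma 3.58.1 (R 4.3.3) on log2(TPM + 1), with 1 mean per condition and variances moderated along a trend with the mean level. P-values were adjusted by Benjamini-Hochberg over all genes that averaged at least 1 TPM, and called at an adjusted p under 0.2. The 8 gel libraries entered the comparisons within gels and all 12 those with plates. The fit was tested on simulated data. An exact permutation test of 2 against 2 libraries cannot go below p = 0.333, so none is given. The members and gene lists were chosen with earlier results of these data known. Named are the 10 members, the called genes with the largest rise and fall of each list, the 3 genes nearest to a member's pattern and 4 reference genes. Gene positions are from the GENCODE annotation of GRCm38, and promoters from RefSeq. Alternatives were a constant of 0.1, a filter at 5 TPM or none, no trend, rescaling to the median ratio, quantile normalization, a block for the replicate number, a threshold of 0.05, all 12 libraries in the gel comparisons, and each library left out. python 3.11.15, pandas 2.3.3 and matplotlib 3.10.9 made tables and plots.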

Additional observations from a re-analysis of the deposited data

Results flagged for a closer look

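For 5 members the IL-4 response in gels differed from that on TC plates by the test of the difference itself (limma interaction on log2(TPM + 1)). Cd47 was called too after rescaling to the median ratio (0.28, adjusted p = 0.0838), but not without rescaling. Atp6v0d2 rose less in gels, by −2.80 (adjusted p = 2.24e-06), with 5.77 and 6.92 TPM on untreated plates against 47.2 to 78.4 TPM in the 4 untreated gel libraries. Cd9 rose more in gels, by 1.06 (adjusted p = 2.41e-05). The Cd81 response differed by 0.48 (adjusted p = 0.00252), with log2 differences of 0.39 at low collagen, 0.12 at high collagen (adjusted p = 0.272, not called) and −0.22 on plates, a call lost after rescaling to the median ratio (−0.16, adjusted p = 0.2003). P2rx7 fell further in gels, by −0.44 (adjusted p = 0.0379). Dcstamp rose more in gels, by 0.80 (adjusted p = 0.192), the weakest of the 5. Each of these differences shares the untreated libraries with the contrast of untreated gels and plates.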

How the results depend on the processing

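Of 76 tested differences of members, 48 were called, and 32 of these kept their call and direction under every alternative. The IL-4 calls of Cdh1, Atp6v0d2 and Acp5 on all 3 substrates and of Cd9 and P2rx7 in both gels did so, although Cdh1 could not be tested at a mean TPM of at least 5. Dcstamp, whose mean is at the filter, could be tested under 12 of 20 alternatives. Of the 28 that were not called, 22 stayed so. The counts of members called moved by over 1.5 times only between collagen concentrations. With IL-4, where 2 were called, quantile normalization called 4, a threshold of 0.05 called 1, and leaving out single libraries gave 1 to 3. Without IL-4, where 4 were called, the fit with no trend called 2, a threshold of 0.05 called 1, and leaving out single libraries gave 1 to 4. One sign turned on a called value: Sirpa with IL-4 at low collagen was −0.043 after quantile normalization, against 0.12. The cause was not tested. With a library left out, the lone sample of its condition was assumed to vary like those of the others. The sample titles give each library a running number, and here the libraries are numbered 1 and 2 within each condition. The deviations of same-numbered libraries correlated by −0.123 to 0.109 over 15 pairs of conditions, with 1 above 0.1, so the numbers were not taken as pairs. With the replicate block the 2 calls of Sirpa with IL-4 at low collagen (0.12, adjusted p = 0.240) and of Dcstamp for the response in gels minus plates (0.80, adjusted p = 0.232) were lost and no other call changed. With 2 libraries per condition and no depth, differences of genes near 1 TPM are the least certain.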
